A study of Mus musculus with 47 samples.

Results

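Primary bone marrow-derived macrophages (BMDMs) and the Raw264.7 macrophage line were compared after lipopolysaccharide (LPS), using 1 RNA library a side from a series of 47 samples. The members were the 16411 gene symbols that occur once in each of both count tables, joined by symbol, out of 51912 genes in the BMDM table and 22599 in the Raw264.7 table. The study asked how the reader protein ZMYND8 and the p65 subunit of NF-κB control pro-inflammatory genes, and it used both cell systems. Of the 12 RNA libraries, 10 served only as context, and the other 35 samples, all of genomic DNA, were not analysed here.

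The BMDM library came from wild-type (WT) C57BL/6 mice. The study's methods name *Zmynd8* fl/fl littermates as the WT controls, so WT here may include the floxed allele. Bone marrow cells were grown with M-CSF at 20 ng/ml and treated with LPS at 100 ng/ml for 6 h, and RNA of 3 biological replicates was mixed before the library was made, so that no replicate spread can be read from it. The Raw264.7 library is labelled p65 KO + WT with LPS, that is, cells in which *Rela*, the gene of p65, was targeted with a lentiviral guide and WT p65 was then put back. Its dose and time of LPS are not given in the sources used here, nor is the number of clones. Its deposited column names only WT and LPS, so the p65 background rests on the sample label. The context libraries were WT BMDMs without treatment (NT) or with IL-4, *Zmynd8* cKO BMDMs (floxed *Zmynd8* with *Lyz2*-Cre) under the same conditions, and Raw264.7 p65 KO and p65 KO + K122R with LPS. The others were labelled Raw264.7 *Zmynd8* KO, *Zmynd8* KO + *Zmynd8* and *Zmynd8* KO + D/E-A, whose RNA labels name no treatment. The study's text describes RNA-seq of the + *Zmynd8* and + D/E-A lines with LPS. The labels give C57BL/6 for every sample, the Raw264.7 line included, although the line is usually described as coming from a BALB/c mouse.

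As background, BMDMs are non-transformed macrophages that stop dividing as they mature, and LPS drives them through Toll-like receptor 4 to NF-κB and to type I interferon signalling. Raw264.7 is a line made from a tumour that a leukaemia virus induced in a male mouse. It keeps phagocytosis and the LPS response but divides without end. NF-κB turns on cytokine and chemokine genes within hours, while interferon made by the cells turns on a second wave of antiviral, antigen-presentation and chemokine genes.

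All levels here are CPM, that is, reads or estimated counts of a gene per 1000000 over the joined symbols of its library, and ratios are log2 of CPM + 1 in BMDMs over CPM + 1 in Raw264.7. A gene was measured where its mean over both libraries was at least 1 CPM, and past the fold where the log2 ratio was at least 2 either way, a 4-fold difference. With 1 library a side there was no test between the conditions. Intervals given with ratios are exact 95% (Clopper-Pearson) and cover counting error only. The cell system, p65 background, LPS exposure and the authors' processing differ between the libraries and cannot be told apart.

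Depth was 24902795 estimated counts for the BMDM library and 15665382 reads for Raw264.7, within the 15127110 to 28386646 of all RNA libraries. The 3 libraries labelled Raw264.7 *Zmynd8* lines went against that label. They held *Xist* at 409, 583 and 509.9 CPM against 0.134 in the p65 KO + WT library, and the neutrophil gene *S100a8* at 1965, 3434 and 1099 CPM against 0.067. Over 10328 genes listed in all libraries, their Spearman correlation with the LPS-treated WT BMDM library was 0.833 to 0.867, and with the p65 KO + WT library 0.65 to 0.684. The BMDM and p65 KO + WT libraries themselves correlated at 0.553. These correlations describe pairs of libraries across genes. Values of the libraries labelled *Zmynd8* lines were in the same form as those of the p65 libraries, and BMDM values were in another form. The counts and ratios between BMDMs and Raw264.7 do not use the libraries labelled *Zmynd8* lines unless this is stated.

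The targeting guide of p65 is shown because it fixes which exon of *Rela* was targeted. Its protospacer, read from the study's oligo list without the cloning overhang and found on GRCm38.p6, lies on the plus strand of chromosome 19 from 5638613 to 5638635, in the coding sequence of exon 3 of 10. Capitals mark the PAM.
sgP65: cgattccgctataaatgcgaGGG
*Rela* itself was nearly level between the cell systems, at 100.4 CPM in WT BMDMs with LPS and 107 CPM in Raw264.7 p65 KO + WT. It was at 53.05 CPM in the p65 KO library and 369.8 CPM in p65 KO + K122R, and at 87.4 CPM in NT BMDMs. Reads from *Rela* thus remained in the library labelled p65 KO, and counts over a whole gene do not show a short change at the guide site. *Zmynd8* was at 82.7 CPM in WT and 90.9 CPM in *Zmynd8* cKO BMDMs with LPS, so it was no lower in the library labelled cKO. The floxed part is only some of its exons, and counts over the whole gene do not check that label. In Raw264.7 p65 KO + WT, *Zmynd8* was at 122.3 CPM. In the libraries labelled *Zmynd8* KO, *Zmynd8* KO + *Zmynd8* and *Zmynd8* KO + D/E-A it was at 6.97, 33.4 and 31.4 CPM. Neither *Rela* nor *Zmynd8* was past the fold between the cell systems.

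More genes were past the fold towards Raw264.7 than towards BMDMs, and the split depended on the scaling. Of 11395 measured genes, 1015 were past 4-fold higher in BMDMs (8.91%) and 3070 past 4-fold higher in Raw264.7 (26.9%), while 7310 were not past the fold. The join lost genes on the BMDM side only in part by symbol. The Raw264.7 table lists only genes with a read in a library of that table, while the BMDM table also lists genes at 0. A further 94 symbols outside the join would be past the fold and higher in BMDMs if set to 0 reads in Raw264.7. The median log2 ratio of all measured genes was -0.93, with quartiles at -2.10 and 0.43, so a typical gene took a larger share of the Raw264.7 reads. The BMDM library was the more concentrated, with 38.2% of its reads in its 100 most abundant genes against 20.6% in Raw264.7. When the median gene was instead set to be equal, the counts were 1807 higher in BMDMs (16.0%) and 1658 higher in Raw264.7 (14.6%), which moved the BMDM share of the genes past the fold from 24.8% to 52.2%. Of the genes named below, *Bcl2*, *Bcl2a1d*, *Ccl24*, *Ccl4*, *Crebbp*, *Csf1*, *Eef2*, *Il18*, *Ipo8*, *Lpl*, *Nfkb1*, *Nfkbid*, *Nfkbiz*, *Ocstamp*, *Trp53* and *Zfp687* were past the fold and higher in Raw264.7 but no longer past it with the median gene set equal. *Cd74*, *Csf1r*, *Ctsz*, *Cxcl11*, *Fcer1g*, *S100a8* and *Tyrobp* were within 4-fold but past it, higher in BMDMs, under that scaling. A list is therefore read against the median of -0.93 and not against 0.

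**Figure D1:**
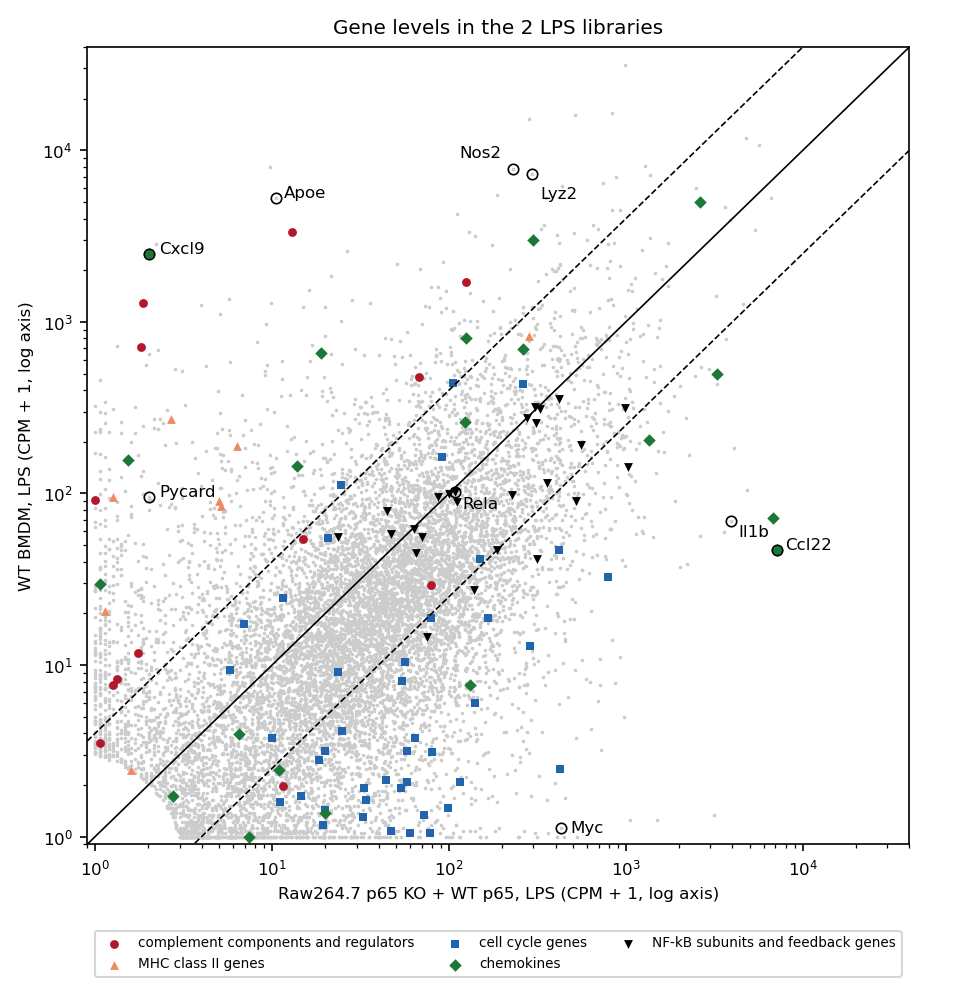
Levels of the measured genes in both LPS libraries, on log axes of CPM + 1, with Raw264.7 p65 KO + WT on the x axis and WT BMDMs on the y axis. Grey points are genes, coloured symbols are members of 5 gene lists, circles mark 9 named genes, the solid line is equality and the dashed lines are 4-fold either way. More genes lie below the lower dashed line (3070) than above the upper one (1015).

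Nearly all of these genes also kept the 2 cell systems apart in the other LPS libraries. Of the genes past the fold and higher in BMDMs, 1012 had both BMDM LPS libraries (WT and *Zmynd8* cKO) above all 3 p65 Raw264.7 LPS libraries, which is 8.88% of measured genes. Of those higher in Raw264.7, 3065 had both BMDM libraries below all 3 (26.9%). The libraries of each side share a pipeline, and they are not independent replicates of the cell system. The genes were chosen by their gap in 1 library of each side. The other LPS libraries correlated with the chosen library of their side at 0.977 to 0.991 (Spearman). Counts this high thus follow largely from that choice. The share of measured genes kept apart without the fold rule is not given here.

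Technical classes of genes moved with the comparison, and their part in it was not tested. Of 211 measured pseudogenes, 97 were past the fold and higher in Raw264.7 (46.0%) and 31 higher in BMDMs (14.7%). Of 91 ribosomal protein genes, 40 were past the fold and higher in Raw264.7 and 3 higher in BMDMs, with a median log2 ratio of -1.92. Reads of near-identical copies can be split between them, so single genes of this kind are uncertain. Protein-coding genes without ribosomal protein genes gave 957 and 2808 of 10745 past the fold, with a median log2 ratio of -0.88.

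Among genes with at least 100 CPM in the higher of both libraries, the 15 with the highest ratio included complement, chemokine, lipid and transporter genes. *Fgl2*, a fibrinogen-like protein that macrophages and T cells make, was at 2861 CPM in BMDMs and 1.21 CPM in Raw264.7, a log2 ratio of 10.34. *Cxcl9*, an interferon-induced chemokine for T cells, was at 2484 against 1.00 CPM (log2 ratio 10.28). *Saa3*, an acute-phase serum amyloid, was at 8002 against 8.77 CPM. In all 3, the levels in NT BMDMs were far lower (50.9, 4.38 and 31.9 CPM). In *C1qb* (1295 against 0.87 CPM), *C1qc* (708 against 0.803) and *Apoe*, the NT level was already high (1206, 933 and 6316 CPM). Also in this group were the cationic amino acid transporter *Slc7a2*, the organic anion transporter *Slco3a1*, the nucleoside transporter *Slc28a2*, xanthine dehydrogenase *Xdh*, the matrix protein *Tgfbi*, *Basp1*, *Cd200r3*, *AA467197* and the pseudogene *Gm10359*. Their log2 ratios ran from 8.12 for *Cd200r3* to 9.08 for *Slc7a2*.

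At the other end, 9 of the 15 genes with the lowest ratio are annotated as pseudogenes, against 1 of the 15 with the highest. They are *Gm15459*, *Gm8730*, *Gm15772*, *Gm13394*, *Gm10260*, *Tpm3-rs7*, *Gm4366*, *Rpl3-ps1* and *Rps3a2*, at 245 to 3157 CPM in Raw264.7 and 0.673 CPM or less in BMDMs, and they are taken as uncertain. The genes *Eno1b*, a copy of an enolase gene, and *Rpl12* are uncertain for the same reason. The remaining 4 are *Ifi202b*, *Ifi44l*, *Myc* and *Mycn*. *Ifi202b*, an interferon-inducible DNA sensor known to be poorly expressed in C57BL/6 mice, was at 0.252 and 0.402 CPM in the WT and *Zmynd8* cKO BMDM LPS libraries and at 1504, 1823 and 1459.98 CPM in the 3 p65 libraries. *Ifi44l* was at 0 in the BMDM libraries and at 525 CPM in Raw264.7, at least 4159-fold higher on a floor of 3 counts. The paralog *Ifi44* was within 4-fold, at 448 and 1432 CPM, and how reads were split between the paralogs was not tested.

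*Myc* and *Mycn*, transcription factors that drive growth, were the other 2 protein-coding genes at this end. *Myc* was at 0.126 and 0.805 CPM in the WT and *Zmynd8* cKO BMDM libraries with LPS and at 431, 287 and 452 CPM in Raw264.7 p65 KO + WT, + K122R and p65 KO. *Myc* was 3416-fold higher (1168 to 16570.3) in Raw264.7, on 3 counts in the BMDM library. NT BMDMs held *Myc* at 54.9 CPM and IL-4-treated ones at 30.6 CPM, so it was lowest in the BMDM libraries with LPS. *Mycn* was at 0 CPM in NT and 0.0421 CPM in LPS-treated BMDMs against 359.7 CPM in Raw264.7, and so was near 0 in BMDMs with or without LPS.

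Promoters of the 2 genes with the highest ratio are shown, since both genes were also higher in LPS-treated than in NT BMDMs. They are the 250 bases before the RefSeq start on GRCm38.p6, 5′ to 3′ on the strand of the gene: *Fgl2* at chr5:21372423-21372672 on the plus strand and *Cxcl9* at chr5:92328080-92328329 on the minus strand. Capitals mark matches on either strand to GGGNNTTCC (an NF-κB-like string), GAAANNGAA (part of the interferon-stimulated element), TGACTCA (AP-1) and GAGGAAGT (PU.1-like).
Fgl2: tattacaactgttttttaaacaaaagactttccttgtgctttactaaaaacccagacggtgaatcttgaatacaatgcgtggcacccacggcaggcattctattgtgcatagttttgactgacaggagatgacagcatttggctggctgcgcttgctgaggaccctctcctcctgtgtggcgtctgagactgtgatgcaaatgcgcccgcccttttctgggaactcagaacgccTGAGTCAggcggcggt
Cxcl9: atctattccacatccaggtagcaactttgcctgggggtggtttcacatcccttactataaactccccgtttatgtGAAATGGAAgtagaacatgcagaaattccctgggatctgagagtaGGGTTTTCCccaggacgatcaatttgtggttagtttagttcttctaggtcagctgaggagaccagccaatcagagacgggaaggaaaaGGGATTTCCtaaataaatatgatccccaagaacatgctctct
*Fgl2* held a single match, to TGACTCA on the reverse strand, and *Cxcl9* held 3, of which 2 were to GGGNNTTCC and 1 to GAAANNGAA. Of 8825 measured genes with a promoter in the table, 741 were past the fold and higher in BMDMs and 2324 higher in Raw264.7. GAAANNGAA was found in 12.3% of the first, 5.77% of the second, 6.66% of all measured genes and 7.16% of all 27025 promoters. TGACTCA was found in 5.94%, 2.45%, 3.03% and 4.43%, and GAGGAAGT in 5.13%, 2.45%, 2.75% and 2.44%. All 3 strings were more common before genes higher in BMDMs than before measured genes at large. GGGNNTTCC was not, with 5.67%, 6.93%, 6.55% and 4.88%. Of the other 5 strings searched, CACGTG (8.10% before genes higher in BMDMs against 8.79% before measured genes), TTTCGCGC (0.405% against 0.544%), CCAAT (34.5% against 37.0%) and TTTGAA (8.10% against 10.7%) were less common there. TTCNNNGAA was at 6.61% against 6.03%. GAAANNGAA and TTCNNNGAA can overlap, no share was tested, and a match is not a bound site.

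**Figure D2:**
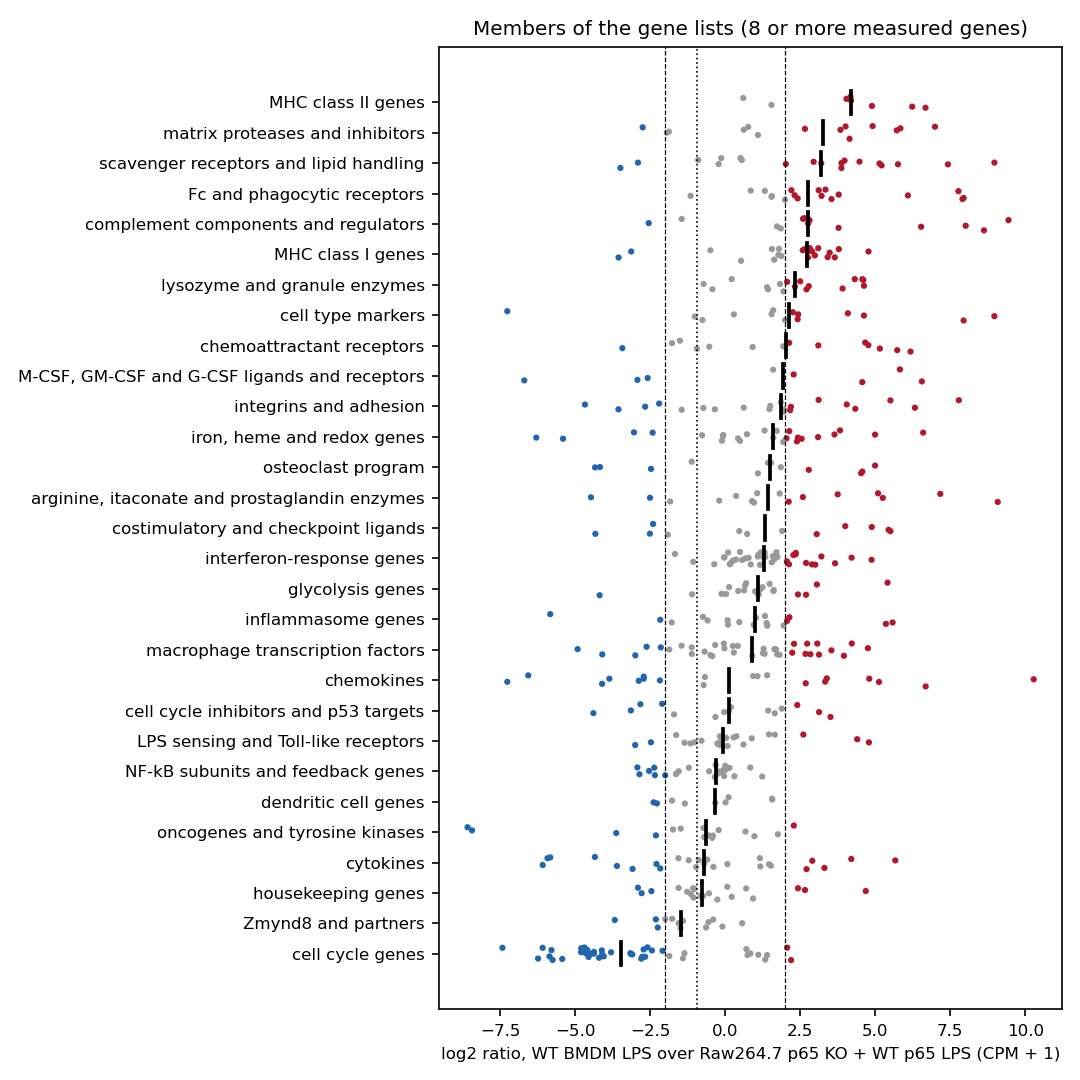
Log2 ratio of each measured member (points) in every gene list with at least 8 measured genes, ordered by the median of the list (thick bars). Red points are past 4-fold higher in BMDMs, blue points past 4-fold higher in Raw264.7 and grey points neither. Dashed lines mark 4-fold, and the dotted line marks the median of all measured genes, -0.93.

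Several defining macrophage genes were within 4-fold, while markers such as *Apoe*, *Adgre1* and *Mertk* were far higher in BMDMs. Of 14 measured cell type markers, 7 were past the fold and higher in BMDMs and 1 higher in Raw264.7 (median log2 ratio 2.12). The pan-leukocyte *Ptprc* (282 against 478 CPM), the master regulator *Spi1* (PU.1, 574 against 470.1) and the LPS co-receptor *Cd14* (264 against 535) were within 4-fold. *Csf1r*, the M-CSF receptor, was at 616 against 203 CPM and within it too. *Adgre1* (F4/80) was 17.2-fold higher (16.2 to 18.3) in BMDMs, and *Mertk*, a receptor for dying cells, was 1160.3-fold higher (453 to 4259.8), at 311 against 0.268 CPM. Raw264.7 thus held *Ptprc*, *Spi1*, *Cd14* and *Csf1r*, with *Mertk* near 0.

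The markers *Apoe*, *Lyz2* and *Ccl22* were past the fold, and not all in 1 direction. *Apoe*, which carries lipid out of macrophages (chromosome 7, 19696244 to 19699188 in the mm10 coordinates of the Raw264.7 table), was at 5290.4 and 4062 CPM in WT and *Zmynd8* cKO BMDMs with LPS. In the 3 p65 libraries it was at 9.57, 6.45 and 9.99 CPM, and the groups were far apart, with a ratio of 553 (469 to 656). *Lyz2*, the lysozyme of myeloid cells (chromosome 10, 117277541 to 117282272), was at 7227 and 3029 CPM in BMDMs and 293, 331 and 299.8 CPM in Raw264.7, 24.7-fold higher (23.95 to 25.4) in the WT BMDMs. *Lyz2*-Cre is a knock-in at this gene, which bears on its level in the *Zmynd8* cKO library only. *Ccl22*, a chemokine for CCR4-bearing T cells (chromosome 8, 94745684 to 94751388), was reversed, at 45.9 and 82.4 CPM in BMDMs and 7186, 4337 and 7508 CPM in Raw264.7, 157-fold higher (148 to 166) there. *Marco*, a scavenger receptor, had no joined value. It was at 419 CPM in WT and 400.3 CPM in *Zmynd8* cKO BMDMs with LPS, and a level for Raw264.7 p65 KO + WT is not given here. *Itgam* was left out because its symbol occurs 2 times in the BMDM table.

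**Figure D3:**
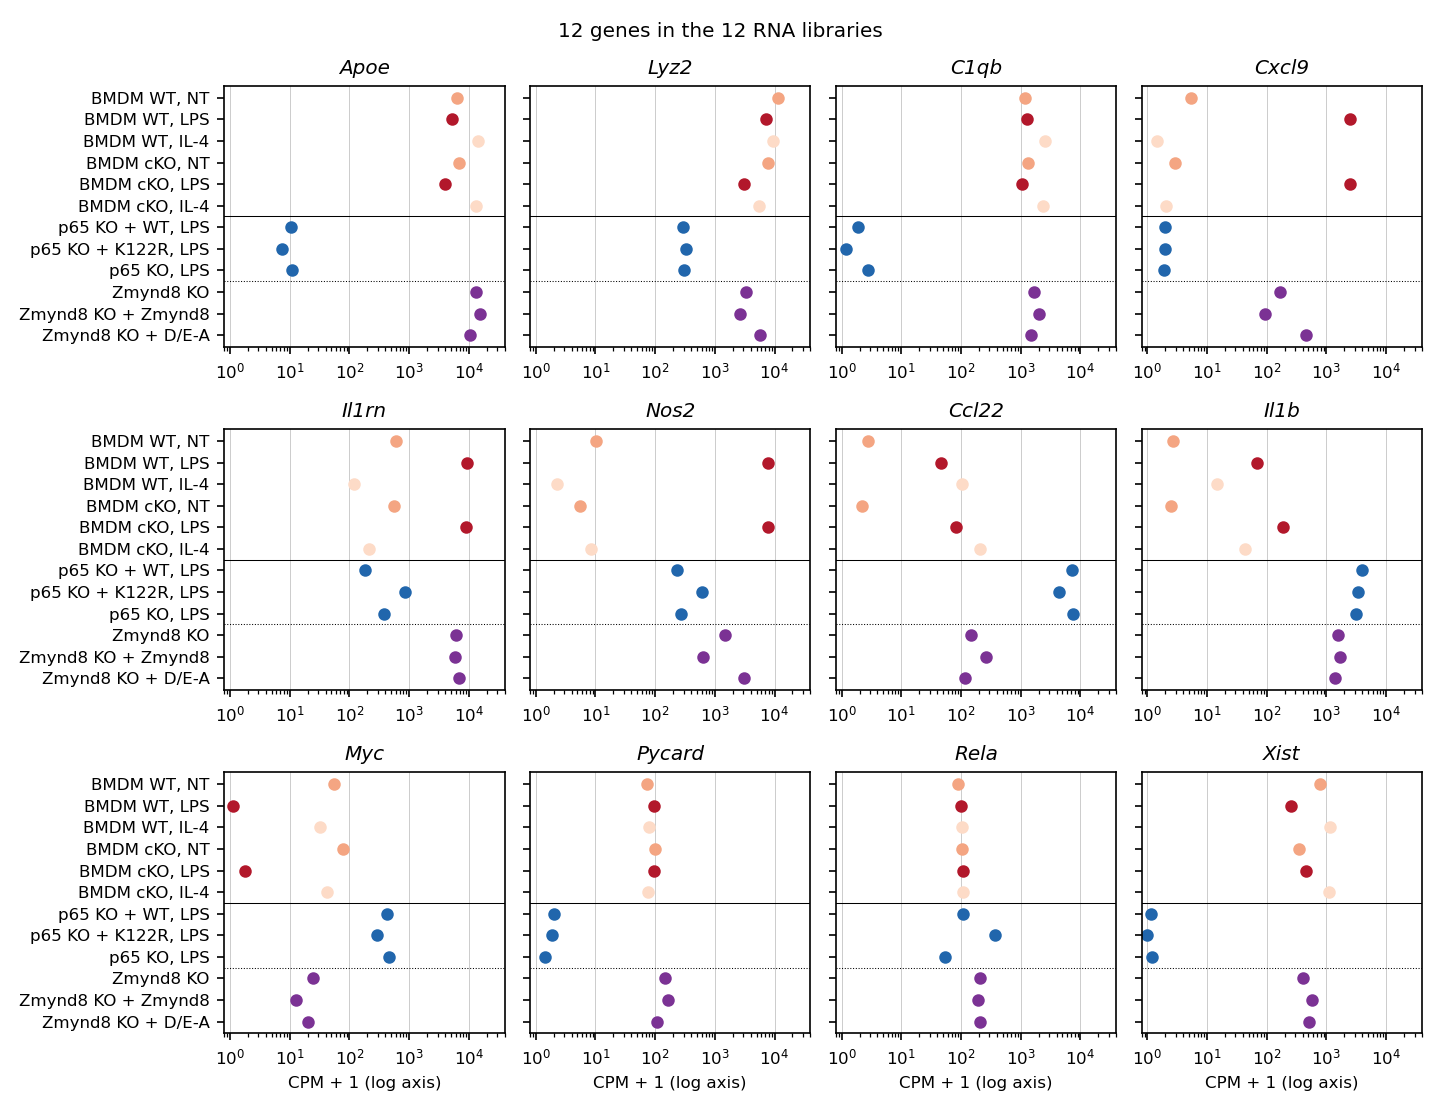
CPM + 1 (log axis) of 12 genes in each of the 12 RNA libraries, 1 point a library. BMDM libraries are in red shades (darkest with LPS), p65 Raw264.7 libraries in blue and the libraries labelled Raw264.7 *Zmynd8* lines in purple. *Apoe*, *C1qb*, *Pycard* and *Xist* separate the p65 libraries from all others, *Ccl22* and *Myc* are highest in the p65 libraries, and *Rela* is within 4-fold between the 2 libraries compared.

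Lipid handling, lysosomal enzymes and complement were groups in which BMDMs stood higher. In the scavenger receptor and lipid list, 12 of 19 measured members were past the fold and higher in BMDMs and 2 higher in Raw264.7 (median log2 ratio 3.20). *Cd5l*, an apoptosis inhibitor that macrophages secrete, was at 170.01 CPM against 0, at least 846-fold higher, and *Gpnmb*, a lysosomal glycoprotein, was at 15259 against 282 CPM. *Fabp5*, a fatty acid carrier, was at 688 against 17.6 CPM. The members higher in Raw264.7 were *Colec12* (8.75 against 109 CPM) and the lipase *Lpl* (434 against 3263 CPM), and *Lpl* was at 6152 CPM in NT BMDMs. *Cd36* and *Msr1*, the oxidised-lipid scavengers, were within 4-fold, at 272 against 507 and 605 against 425 CPM.

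Of 17 lysozyme and granule enzymes, 10 were past the fold and higher in BMDMs and 0 higher in Raw264.7 (median 2.32). The cathepsins, lysosomal proteases, included *Ctsb* at 16568 against 831 CPM, *Ctsc* at 2241 against 91.5 and *Ctsk*, the protease of bone resorption, at 32.3 against 0.402. *Ctsz* and *Gusb* were within 4-fold, though *Ctsz* was past it with the median gene set equal, so the difference did not run through every lysosomal gene. In the complement list, 9 of 13 were past the fold and higher in BMDMs and 1 higher in Raw264.7 (median 2.76). *C1qa*, of the first complement component, was at 91.0 CPM against 0, at least 453-fold higher, and *C3*, on which all complement routes meet, was 279-fold higher (241 to 325) at 3347 against 11.98 CPM. *C3* was at 178 CPM in NT BMDMs, while *C1qa* was at 140.1 CPM there, above its LPS level.

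Most measured antigen-presentation genes of both classes were past the fold and higher in BMDMs. Of 8 MHC class II genes, 6 were past the fold and higher in BMDMs and 0 higher in Raw264.7 (median 4.18). *H2-Ab1* was at 271 and 264 CPM in BMDMs and 1.67, 4.87 and 4.02 CPM in Raw264.7. The peptide-loading *H2-DMb1* was at 94.1 against 0.268 CPM and the class II transactivator *Ciita* at 19.7 against 0.134 CPM. The invariant chain *Cd74* was within 4-fold, at 823 against 282 CPM. Of 22 MHC class I genes, 13 were past the fold and higher in BMDMs and 2 higher in Raw264.7 (median 2.71). *B2m*, the light chain of all class I molecules, was at 8102 against 1283 CPM, a ratio of 6.31 (6.22 to 6.41). Class I genes of the *H2-Q*, *H2-T* and *H2-M* groups have close copies and differ between strains, so *H2-Q7* (398 against 13.6 CPM), *H2-T22* (1207 against 95.3), *H2-M2* (12.8 against 0) and *H2-Q1* (0.168 against 12.7) are uncertain one by one.

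Receptors for antibody-coated and dying targets leaned to BMDMs too, though not every member did. In the Fc and phagocytic receptor list, 12 of 18 were past the fold and higher in BMDMs and 0 higher in Raw264.7 (median 2.76). *Fcgr3*, a low-affinity activating IgG receptor, was at 1108 and 1002 CPM in BMDMs against 4.08, 5.12 and 3.74 CPM in Raw264.7. Its high-affinity relative *Fcgr1* was at 2031 against 381 CPM, so that the IgG receptors did not share 1 ratio (271 and 5.34). The paired receptors *Pirb* (1362 against 4.69 CPM) and *Pira2* (66.9 against 0) have close copies. The shared signalling chains *Tyrobp* and *Fcer1g* were within 4-fold, *Fcer1g* only just, at 358 against 122.1 and 1524 against 382 CPM.

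Genes of the LPS response were past the fold in both directions, chemokines among them. Of 20 measured chemokines, 7 were past the fold and higher in BMDMs and 8 higher in Raw264.7 (median 0.13). With the median gene set equal the balance turned, to 9 and 5, and of those higher in Raw264.7 *Ccl24* alone did not keep the LPS libraries of both systems apart. On the BMDM side were the CCR2 ligands *Ccl2* (802 and 1018 CPM in BMDMs against 124, 83.7 and 221 in Raw264.7), *Ccl7* and *Ccl12*, and the interferon-driven *Cxcl9* and *Cxcl10*. *Cxcl10* was at 2994 against 297 CPM, 10.1-fold higher (9.79 to 10.4), and *Ccl12* at 156 against 0.536 CPM. On the Raw264.7 side were *Ccl22*, *Cxcl2* (6.64 against 130.4 CPM), which draws neutrophils, and the inflammatory chemokines *Ccl3* and *Ccl4*. *Ccl3* was at 70.8 and 91.2 CPM in BMDMs and 6778, 7781 and 8011 CPM in Raw264.7, a gap of 95.8-fold (91.3 to 101). *Ccl5*, which draws T cells and monocytes, was within 4-fold at 4969 against 2607 CPM, and *Cxcl11*, annotated as a transcribed pseudogene, was so at 260.04 against 123 CPM. NT BMDMs held *Ccl3* at 75.8 CPM, about its level with LPS, and *Ccl5* at 56.8 CPM.

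**Figure D4:**
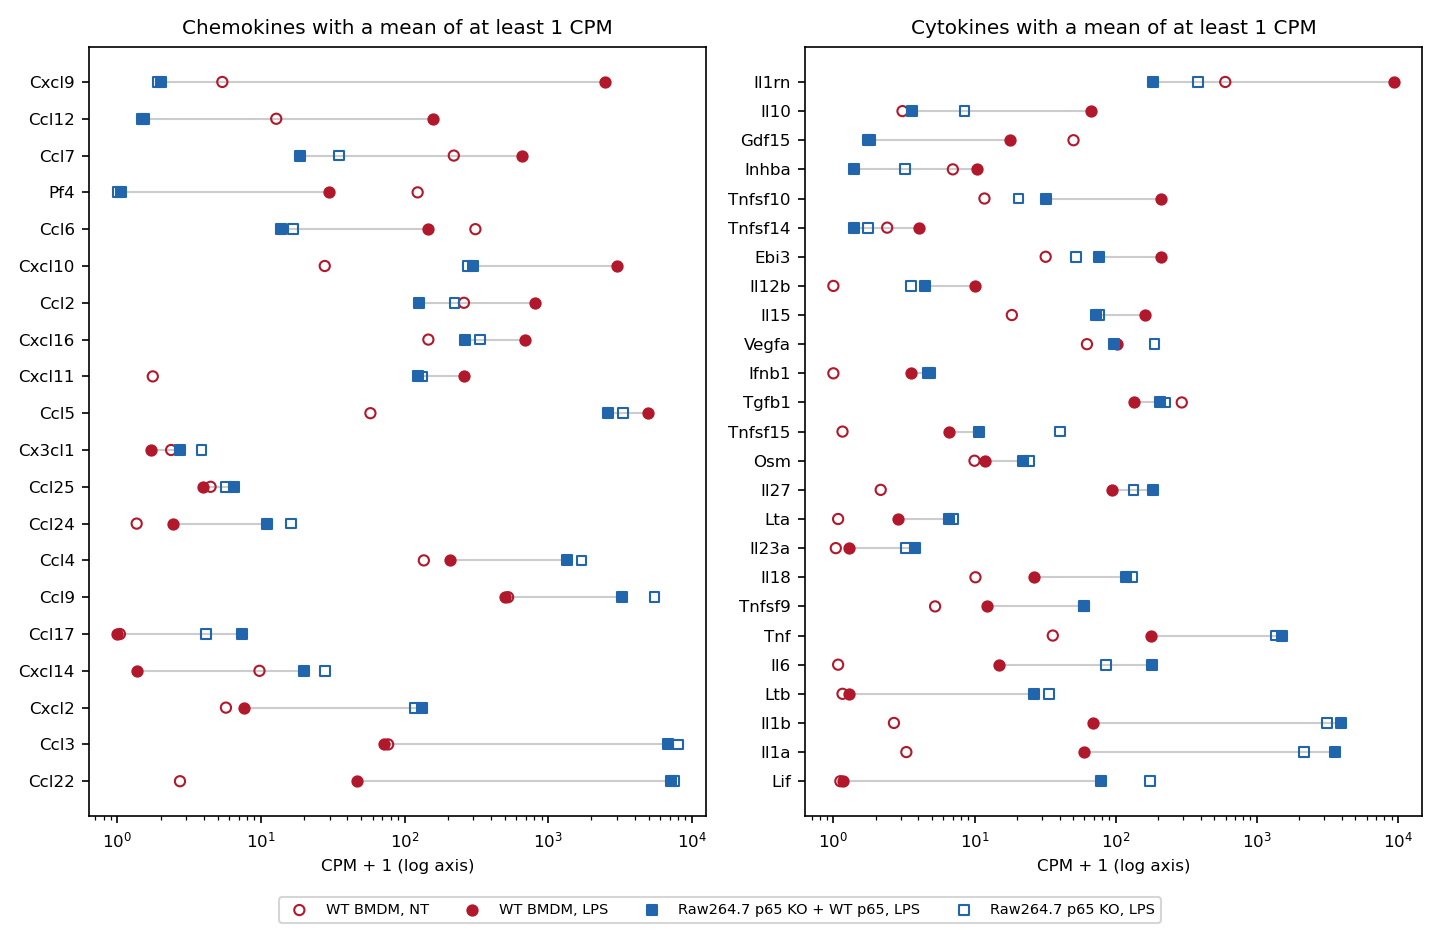
CPM + 1 (log axis) of the measured chemokines (left) and cytokines (right), ordered by the log2 ratio between both LPS libraries. Filled red circles are LPS-treated and open ones NT WT BMDMs, filled blue squares are Raw264.7 p65 KO + WT and open ones p65 KO, both with LPS, and grey lines join the 2 libraries compared. *Cxcl9* and *Il1rn* head the BMDM side, *Ccl22* and *Lif* the Raw264.7 side.

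Cytokines were past the fold on both sides, with the interleukin-1 agonists and their antagonist opposed. Of 25 measured cytokines, 8 were past the fold and higher in Raw264.7 and 5 higher in BMDMs (median -0.70, near that of all genes). Over all measured genes the shares were 26.9% and 8.91%. With the median gene set equal the counts were 6 and 8 and the median turned to 0.15. *Il1b*, the pro-inflammatory interleukin that needs cleavage to act, was at 68.4 and 185 CPM in WT and *Zmynd8* cKO BMDMs and 3944, 3365 and 3138 CPM in Raw264.7. Its ratio was 57.7-fold (54.9 to 60.6) towards Raw264.7. *Il1a* was at 58.5 against 3606 CPM, whereas *Il1rn*, the antagonist that blocks the receptor of both, was at 9367 against 184 CPM, 51.0-fold higher (49.2 to 53.02) in BMDMs. The agonists and the antagonist of 1 receptor were thus past the fold in opposite directions. *Il6* was at 13.9 and 22.3 CPM in BMDMs and 180.4, 273 and 84.1 CPM in Raw264.7, *Tnf* at 177 against 1509.7 CPM and *Lif*, a relative of *Il6*, at 0.168 against 78.1 CPM. The anti-inflammatory *Il10* was at 65.3 against 2.61 CPM. *Ifnb1*, which starts the interferon wave, was low on both sides at 2.57 and 3.68 CPM, and the time after LPS is known for the BMDMs only.

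Of 25 NF-κB subunit and feedback genes, 0 were past the fold and higher in BMDMs and 6 higher in Raw264.7, with a median log2 ratio of -0.32, where 26.9% of all measured genes were higher in Raw264.7. With the median gene set equal, these counts were 1 and 0, with a median of 0.64, so the direction of this list depends on the scaling. *Nfkb1*, which encodes p50, was at 141 against 1028 CPM, *Nfkbiz*, a nuclear co-activator that *Il6* needs, at 40.3 against 313 CPM and *Nfkbid* at 13.5 against 73.6 CPM. *Bcl2a1d* (89.1 against 522 CPM) has near-identical copies. The feedback genes *Tnfaip3* (311 against 326 CPM) and *Nfkb2* (257 against 308) were nearly level.

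Interferon-response genes leaned to BMDMs. Of 40 interferon-response genes, 12 were past the fold and higher in BMDMs and 0 higher in Raw264.7 (median 1.29), and 38 lay above the median of all genes. *Gbp2*, a guanylate-binding protein that acts on vacuoles of microbes, was at 5510.4 and 5435 CPM in BMDMs and 187, 337 and 181 CPM in Raw264.7, a ratio of 29.5. *Gbp5* (2037 against 220.4 CPM), the immunity-related GTPase *Iigp1* (1141 against 89.4) and *Ifi205* (1605 against 85.8) were also past the fold. *Oasl1*, *Ifih1* and *Oas2* were nearly level, with *Oasl1* at 1785 against 1605 CPM and *Ifih1* at 780.2 against 804 CPM. Members of the interferon response thus did not share 1 ratio.

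Of 22 LPS sensing and Toll-like receptor genes, 17 were not past the fold, 3 were past it and higher in BMDMs and 2 higher in Raw264.7 (median -0.07, and 0.89 with the median gene set equal). The endosomal sensors *Tlr8* (154 against 4.62 CPM), *Tlr13* (106 against 4.08) and *Tlr9* (273 against 44.2) were higher in BMDMs. *Tlr2*, the surface sensor of bacterial lipoproteins, was at 28.3 against 233 CPM and higher in Raw264.7. In the inflammasome list, 4 of 18 were past the fold and higher in BMDMs and 2 higher in Raw264.7 (median 0.99). *Pycard*, which encodes the adaptor ASC that links sensors to caspase-1, was at 94.7 and 93.8 CPM in BMDMs and 1.00, 0.885 and 0.416 CPM in Raw264.7, a ratio of 94.3 (57.0 to 169). Raw264.7 is known to lack ASC. *Mefv*, which encodes pyrin, was at 53.5 against 0.335 CPM, *Nlrp3* was within 4-fold at 84.0 against 291 CPM, and *Casp1* was at 485 against 115 CPM. *Il18*, cut by the same caspase as *Il1b*, was at 25.3 against 117 CPM and higher in Raw264.7.

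Enzymes that mark classical activation differed one by one. Of 16 genes of arginine, itaconate and prostaglandin metabolism, 7 were past the fold and higher in BMDMs and 2 higher in Raw264.7 (median 1.44). *Nos2*, which makes nitric oxide from arginine, was at 7825 and 7741 CPM in BMDMs and 229, 613 and 267 CPM in Raw264.7, 34.2-fold higher (33.1 to 35.4). *Slc7a2*, which brings arginine in, was at 721 against 0.335 CPM. *Acod1*, the itaconate enzyme, was within 4-fold at 4657 against 3624 CPM. The prostaglandin route was divided, with *Ptgs2*, the inducible cyclooxygenase, at 183 against 4084 CPM and the next enzyme, *Ptges*, at 218 against 4.75 CPM. *Ch25h*, which makes 25-hydroxycholesterol under interferon, was at 162 against 0.134 CPM.

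Colony-stimulating factors and their receptors lay on opposite sides. The ligands were higher in Raw264.7: *Csf2* (GM-CSF) was at 0 in both BMDM LPS libraries and 103, 17.4 and 73.3 CPM in Raw264.7, at least 813-fold higher in p65 KO + WT. *Csf1* (M-CSF), which the BMDM medium supplied, was at 60.1 against 365 CPM, and *Csf3* (G-CSF) at 1.72 against 19.7 CPM. The receptor chains other than *Csf1r* were higher in BMDMs, with *Csf2rb* at 697 against 28.5 CPM, *Csf2rb2* at 764 against 7.16 and *Csf3r* at 517 against 8.17. In all, 4 of 8 measured genes were past the fold and higher in BMDMs and 3 higher in Raw264.7 (median 1.94). The chemoattractant receptors were likewise higher in BMDMs for 7 of 14 and in Raw264.7 for 1 (median 2.03). The formyl peptide receptor *Fpr2* was at 98.3 against 0.87 CPM. *Cx3cr1* was the member higher in Raw264.7, at 0.126 against 11.1 CPM.

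Surface ligands, proteases and adhesion genes gave mixed lists. Among 12 costimulatory and checkpoint ligands, 5 were past the fold and higher in BMDMs and 3 higher in Raw264.7 (median 1.31). *Cd86*, a ligand of CD28, was at 733 against 15.9 CPM and *Icosl*, the ligand of ICOS, at 10.8 against 237 CPM, while *Cd40* was within 4-fold at 1363 against 821 CPM. Among 14 matrix proteases and inhibitors, 8 and 1 were past the fold in the same order (median 3.25). The macrophage elastase *Mmp12* was at 270.3 against 1.14 CPM and the inhibitor *Timp2* at 83.1 against 0.603 CPM. Among 21 integrin and adhesion genes the counts were 8 and 4 (median 1.85). *Itga4*, the VLA-4 chain, was higher in Raw264.7 at 54.7 against 1418 CPM, and its ligand *Vcam1* was higher in BMDMs at 53.4 against 0.201 CPM.

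Transcription factors of macrophage identity were divided too. Of 37 measured, 11 were past the fold and higher in BMDMs and 5 higher in Raw264.7 (median 0.90). *Irf1*, an interferon-induced activator of *Cxcl9* and *Gbp2*, was at 808 and 812 CPM in BMDMs and 42.5, 64.8 and 52.5 CPM in Raw264.7. On the other side, *Irf4* was at 1.05 against 61.0 CPM and *Egr2* at 1.05 against 34.1 CPM. Raw264.7 is a usual source of osteoclasts, and of 12 osteoclast genes 4 were past the fold and higher in BMDMs and 3 higher in Raw264.7 (median 1.48). Over all measured genes the shares were 8.91% and 26.9%, so the number higher in Raw264.7 was near that of genes at large. The regulator *Nfatc1* (12.7 against 246 CPM) and the fusion genes *Dcstamp* (0.336 against 26.0) and *Ocstamp* (4.37 against 28.9) were the 3 higher in Raw264.7. The acid and resorption genes *Atp6v0d2* (45.7 against 0.469 CPM), *Clcn7* (569 against 23.7), *Ctsk* and *Acp5* were higher in BMDMs.

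Cell cycle genes had the lowest median of the 33 gene lists. Of 42 measured cell cycle genes, 31 were past the fold and higher in Raw264.7 and 2 higher in BMDMs, with a median log2 ratio of -3.48. With the median gene set equal the counts were 25 and 5 and the median -2.81. *Top2a*, the topoisomerase of chromosome segregation, was at 1.47 and 1.74 CPM in BMDMs and 423, 180.3 and 299 CPM in Raw264.7. Cyclins *Ccna2* (0.0421 against 77.5 CPM) and *Ccnb1* (0.463 against 98.2) and the mitotic exit activator *Cdc20* (0.0421 against 59.3) were near 0 in BMDMs. They were low in NT BMDMs too (*Top2a* 9.27, *Ccna2* 0.843, *Ccnb1* 1.49 and *Cdc20* 0.883 CPM). The replication helicase gene *Mcm3* was at 57.6 CPM in NT and 5.004 CPM in LPS-treated BMDMs against 139.9 CPM in Raw264.7. *Pcna* and *Ccnd3* were the 2 higher in BMDMs, *Pcna* at 439 against 104 CPM.

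Of 15 cell cycle inhibitors and p53 targets, 3 were past the fold and higher in BMDMs and 4 higher in Raw264.7 (median 0.12), and 6 and 2 with the median gene set equal. Among them were *Btg1* at 88.9 against 1886 CPM, *Cdkn2d* at 106 against 8.37 and *Trp53* at 19.05 against 141. Of 16 oncogenes and tyrosine kinases, the counts were 1 and 4 (median -0.63), *Myc*, *Mycn*, *Abl2* and *Bcl2* being those higher in Raw264.7, and the median was 0.33 with the median gene set equal. Over all measured genes 8.91% were higher in BMDMs and 26.9% in Raw264.7, and the numbers higher in Raw264.7 in both lists were near that share. Of 13 genes for ZMYND8 and its partners, none was past the fold and higher in BMDMs and 3 were higher in Raw264.7 (median -1.49). This is no more than the 26.9% of all measured genes that were higher in Raw264.7. These were *Hdac2* (9.50 against 134 CPM), *Zfp687* (15.2 against 79.3) and *Crebbp* (24.2 against 119). The demethylase *Kdm1a* (LSD1) was within 4-fold at 34.2 against 119 CPM. With the median gene set equal, *Hdac2* alone of these was past the fold.

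Metabolic lists leaned to BMDMs. In glycolysis, 4 of 21 were past the fold and higher in BMDMs and 1 higher in Raw264.7 (median 1.08). The myeloid hexokinase *Hk3* was at 2161 against 49.9 CPM. The glucose transporter *Slc2a3* was the member higher in Raw264.7 at 1.77 against 49.3 CPM, and *Pkm* was level at 3938 against 3863. In iron, heme and redox genes, the counts were 10 and 4 of 25 (median 1.60). Among those higher in BMDMs were the ferritin heavy chain *Fth1* at 31316 against 983 CPM and heme oxygenase *Hmox1* at 2573 against 25.6 CPM. Among those higher in Raw264.7 were the transferrin receptor *Tfrc* at 6.94 against 622 CPM, 89.7-fold (76.9 to 105), and the cystine transporter *Slc7a11* at 8.33 against 394 CPM. *Tfrc* was at 252 CPM in NT BMDMs. As a reference, 3 of 20 housekeeping genes were past the fold and higher in BMDMs (*Gapdh* and *B2m* among them) and 3 higher in Raw264.7 (*Ipo8* and *Eef2* among them), with a median of -0.78 that was close to that of all genes and turned to 0.19, with counts of 3 and 0, with the median gene set equal.

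Markers of other cell types were mostly low in both libraries, *Lcn2* and *Kdr* in BMDMs apart. Of 7 joined neutrophil and progenitor genes, the summed level was 174 CPM in BMDMs, nearly all *Lcn2* (168 CPM), which macrophages make under LPS, and 19.4 CPM in Raw264.7. The sums ran from 3.01 to 235 CPM over the BMDM libraries and 15.7 to 21.2 CPM over the p65 libraries. Of 3 measured, 1 was past the fold and higher in BMDMs (median 1.89). The dendritic cell genes summed to 27.1 and 52.0 CPM over 10 joined genes, with none of 9 measured past the fold and higher in BMDMs and 2 higher in Raw264.7 (median -0.33), against 1 and 0 with the median gene set equal (median 0.54). *Cd209a* was at 0 in both libraries. The B cell, T cell and NK cell genes summed to 18.2 and 9.31 CPM over 8, with *Cd4* (17.1 against 0.201 CPM) and *Pax5* (0.126 against 8.30) past the fold in opposite directions. *Cd3d* was at 0 in both libraries, *Ebf1* in BMDMs and *Ms4a1* in Raw264.7. These sums ran from 15.0 to 32.3 CPM over the BMDM libraries and 6.59 to 9.36 CPM over the p65 libraries. Of 5 measured fibroblast, endothelial and red cell genes, 2 were past the fold and higher in BMDMs, led by *Kdr* at 139 against 0.201 CPM, and 1 higher in Raw264.7 (median 1.03). This list summed to 161 and 16.4 CPM, with *Col3a1* at 0 in BMDMs and *Dcn* and *Pdgfrb* at 0 in Raw264.7. Their part in the comparison was not tested, and in bulk RNA, more cells of a type and more RNA per cell cannot be told apart. Of 5 measured sex-linked genes, *Xist* was past the fold and higher in BMDMs and 4 Y-linked genes higher in Raw264.7 (median -3.09), with *Xist* at 258 against 0.134 CPM, *Ddx3y* at 0 against 26.8 CPM and *Eif2s3y* at 0.0421 against 16.9 CPM. The sex of the cells is thus a further difference that cannot be told apart from the cell system.

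With the library labelled Raw264.7 *Zmynd8* KO + *Zmynd8* in place of p65 KO + WT, genes past the fold were 299 higher in BMDMs and 1187 higher in that library. *Apoe* was at 13302, 15154 and 10304 CPM in the libraries labelled *Zmynd8* KO, *Zmynd8* KO + *Zmynd8* and *Zmynd8* KO + D/E-A, above 5290.4 CPM in BMDMs with LPS, and *Pycard* was at 145, 161 and 105 CPM. *Ccl22* was at 148, 265 and 117 CPM there. The 2 sets of libraries that carry the Raw264.7 label thus lay on opposite sides of the BMDM library for *Apoe*, and only the p65 set was low in *Pycard*. With NT BMDMs in place of LPS-treated ones, 1084 and 1452 genes were past the fold, higher in BMDMs and in Raw264.7. These counts rest on the same Raw264.7 or BMDM library as the main ones.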

How the data were processed

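RNA-seq values came from the gene tables that the authors deposited. The BMDM tables hold an expected count per gene, an estimated count made by the authors. The study's RNA-seq methods name TopHat on mm10 without saying for which tables. These counts were rounded to whole numbers. The Raw264.7 tables hold a signal per gene from the authors in which each value of a library is a multiple of 1 step. Dividing by that step recovered whole reads for 100% of the p65 KO + WT values. How the authors scaled them is not given in the sources used here. Columns of the authors' own fold changes and p-values, 6 TPM columns and 2 columns with no matching label were not used. The BMDM table has 431 entries that name no gene, which were left out, and 20 symbols of the Raw264.7 table were turned into dates.

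Symbols occurring once in each table were joined (72.6% of symbols of the Raw264.7 table). Each library was scaled to its total over them, and the log2 ratio of CPM + 1 was taken where the mean of both libraries reached 1 CPM. With 1 library a side no test between the conditions is possible, so no p-value is given and a gene is called past 4-fold. The rule was tried on simulated libraries that shared a mean profile and differed by counting error and a set of changed genes. They held no difference in processing and no shift of the median gene, so they cannot vouch for the rule on this pair. Positions in the Raw264.7 table were compared with GRCm38 (98.9% of 15895 matched symbols started within 5000 bases). Promoters and the guide position are from RefSeq on GRCm38.p6.

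Genes were named by rule: the 15 with the highest and the 15 with the lowest ratio at 100 CPM or more, up to 4 members of each list with the largest ratio at 10 CPM or more, the 4 markers, and a few genes of the study. Others, among them members named for being within 4-fold or at 0, were chosen after their values were seen, and some genes that the rule names are not reported here. The members and gene lists were chosen with earlier results of these data known. Alternatives covered pseudocount, filter, scaling, fold, and the library on each side. A binomial test on reads, tried as an alternative, compares the libraries and covers counting error only. Python 3.11.15, pandas 2.3.3, SciPy 1.17.1, R 4.3.3 and edgeR 4.0.16 (TMM factors only) were used.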

Additional observations from a re-analysis of the deposited data

Results flagged for a closer look

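Both results here come from libraries outside the comparison, the 3 labelled Raw264.7 *Zmynd8* lines, and each was singled out because a signal of other cell types exceeded that of the libraries compared. The summed level of the neutrophil and myeloid progenitor genes was 4209.7 to 10249 CPM in them, against 15.7 to 21.2 CPM in the p65 Raw264.7 libraries and 3.01 to 235 CPM in the BMDM libraries. The summed level of the B cell, T cell and NK cell genes was 163 to 223 CPM, against 6.59 to 9.36 and 15.0 to 32.3 CPM. The origin of this signal was not tested.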

How the results depend on the processing

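Counts are given as genes higher in BMDMs and then genes higher in Raw264.7. They were 1807 and 1658 with median ratio scaling, 1732 and 1746 with TMM scaling, 2001 and 5525 at 2-fold, 526 and 1413 at 8-fold and 677 and 1841 with a pseudocount of 5 CPM. With the library labelled *Zmynd8* KO + *Zmynd8* as the Raw264.7 library they were 299 and 1187, and with NT BMDMs 1084 and 1452. Under the remaining alternatives both counts stayed within 1.5 times their values: a pseudocount of 0.1 CPM, other filters, totals without mitochondrial and ribosomal protein genes or over whole tables, *Zmynd8* cKO BMDMs, either other p65 library, the other deposited table of the same library and, chosen after seeing the data, coding genes only, genes not listed for Raw264.7 counted at 0, and the fold rule with a binomial test on the reads, which covers counting error only and says nothing of the spread between replicates. Of 2147 pairs of a named gene and an alternative, 36 were past the fold and turned sign, all with another library on either side. Another pseudocount cannot turn a sign. The other scalings moved ratios by less than 4-fold, so they could not turn these genes either. A further 57 pairs of genes within 4-fold turned sign, 8 of them with median ratio scaling and 7 with TMM scaling, *Rela*, *Zmynd8*, *Ptprc*, *Tnfaip3*, *Nfkb2*, *Ifih1* and *Ifnb1* under both. Log2 ratios that turned with the library labelled *Zmynd8* KO + *Zmynd8* were *AA467197* -0.95, *Acp5* -1.26, *Apoe* -1.52, *C1qa* -3.10, *C1qb* -0.66, *Ccnd3* -0.62, *Ciita* -0.13, *Colec12* 1.27, *Csf3r* -0.014, *Cxcl10* -0.11, *Fpr2* -2.19, *H2-Ab1* -0.49, *H2-Q7* -0.11, *Il10* -1.41, *Lcn2* -4.61, *Lpl* 1.52, *Mefv* -2.82, *Ocstamp* 1.18, *Ptges* -1.64, *Pycard* -0.76, *Vcam1* -1.20 and *Xist* -1.17. With NT BMDMs they were *Casp1* -0.36, *Cdkn2d* -0.34, *Cxcl10* -3.42, *Gbp2* -0.83, *Gbp5* -3.25, *Ifi205* -0.46, *Iigp1* -3.29, *Il10* -0.23, *Lcn2* -2.85, *Lpl* 0.91, *Nos2* -4.49, *Ptges* -0.087 and *Tlr9* -0.98. With p65 KO + K122R as the Raw264.7 library, *Ccl24* turned to 0.23. The cause was not tested. No paired analysis was possible because each side has 1 library, which leaves no test between the conditions. The spread between replicates is not known for any value.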
